A study of Mus musculus with 6 samples.

Results

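Chemokines are small secreted proteins that guide the movement of leukocytes and other cells, and the genes described here encode them and their receptors. They were taken by name, as every gene symbol in all 6 count files that begins with Ccl, Ccr, Cxcl or Cxcr followed by a digit, together with Cx3cl1, Cx3cr1, Xcl1 and Xcr1. The rule found 59 of 21786 symbols, 39 ligands and 20 receptors. Polyadenylated RNA of whole mouse testis was sequenced in 6 libraries, and reads were counted per gene. Grossly enlarged testes of Stra8 -/- males aged 1 year, labelled Stra8-deficient, gave 3 libraries, and the other 3 were from testes of Stra8 +/+ males aged 2 to 4 months, labelled wild-type. All males had a C57BL/6 background. The labels describe single males, and the enlarged testes as mostly made of cells like type A spermatogonia. Age and testis enlargement differ together with genotype, so their effects cannot be told apart. The sources used here do not give which part of Stra8 is deleted.

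As background, chemokines are named for the spacing of their conserved cysteines, as CC, CXC, CX3C or C, and they signal through G protein-coupled receptors that turn on cell migration. Inflammatory members are induced in macrophages and stromal cells and recruit monocytes, neutrophils or lymphocytes, whereas homeostatic members are made continuously and position cells in tissues. In the testis, resident macrophages lie between the seminiferous tubules, and Cxcl12 with its receptor Cxcr4 guides germ cells to the gonad and helps keep spermatogonial stem cells in their niche.

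Reads in genes numbered 6733128 to 12425689 per library. Levels are CPM, the read count relative to library size, scaled by TMM, a between-library factor that ran from 1.21 to 1.27 for Stra8-deficient libraries and from 0.796 to 0.813 for wild-type libraries, and values of a genotype are always given in the order of libraries 1, 2 and 3. A fold change is the log2 ratio of the Stra8-deficient to the wild-type level and carries an approximate standard error (SE). A gene is said to have risen or fallen where edgeR's quasi-likelihood test gave a Benjamini-Hochberg adjusted p under 0.05 over all 15018 genes tested. Markers of haploid germ cells, summed over 10 genes, stood at 10.5 ± 3.84 CPM in Stra8-deficient libraries and at 29502 ± 2241 CPM in wild-type libraries (SD, n = 3 each). Those of spermatogonia, summed over 15 genes, stood at 4994 ± 623 and 230 ± 17.2 CPM. Stra8 itself was at 18.1 to 23.7 CPM against 17.1 to 18.7 CPM, which does not check the labels. The Stra8-deficient libraries differed more among themselves, with a biological coefficient of variation of 38.2% against 7.41% within wild-type. Both genotypes nevertheless shared a common estimate of the spread in the test, so SEs and adjusted p-values reflect neither genotype alone. In bulk tissue, more cells of a type and more RNA per cell cannot be told apart.

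Chemokine genes moved in both directions. Of the 59 members, 21 had enough reads to be tested, and 9 of these rose, 4 fell and 8 were not called. Over all genes tested, 75.8% were called, 39.0% higher and 36.7% lower, so the members' 13 of 21 was no larger a share than that background. The same background applies to every list of other genes described below. The levels of the genotypes did not overlap for 15 of the 21, 9 higher and 6 lower, beside 80.2% of all genes tested, 40.7% higher and 39.4% lower. Among those that rose were the ligands Ccl6, Ccl9, Cxcl1, Cxcl10, Cxcl14, Cxcl16 and Cx3cl1 and the receptor Cxcr4. The 4 that fell were the ligands Ccl27a and Ccl22 and the receptors Ccr6 and Cxcr5. A member that passed the filter on low counts through the genotype where it is high had to differ, and the counts and median of the tested members therefore describe these libraries only. The median log2 fold change of the 21 was 0.24, beside 0.11 for all genes tested, and it was -0.47 without the third Stra8-deficient library. Of the other members, 29 had at least 1 read and 9 had 0 reads in all 6 libraries. A count of 0 allows up to 3 counts, or 0.243 to 0.447 CPM per library before TMM scaling.

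**Figure D1:**
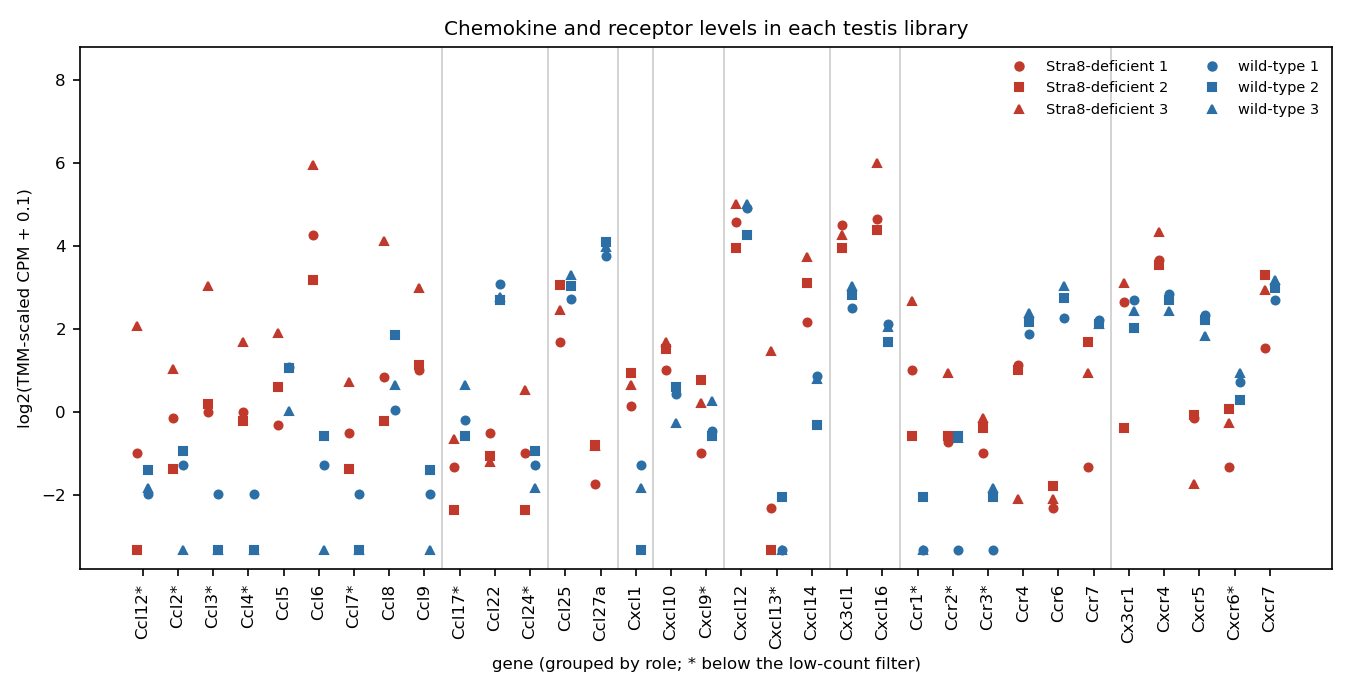
Each point is 1 library, with the level as log2 of TMM-scaled CPM plus 0.1 on the vertical axis and 33 members with at least 20 reads in all on the horizontal axis, separated by role. Red Stra8-deficient points lie above blue wild-type points for Ccl6, Ccl9, Cxcl16, Cx3cl1 and Cxcr4 and below them for Ccl22, Ccl27a, Ccr6 and Cxcr5, and the third Stra8-deficient library (red triangle) lies highest for most of the macrophage-related ligands.

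The ligands that attract monocytes and macrophages held the largest rises among tested members. Ccl6, a myeloid chemokine of rodents that acts on Ccr1, was at 19.3, 9.05 and 61.6 CPM in Stra8-deficient and 0.312, 0.565 and 0 CPM in wild-type libraries. Every Stra8-deficient library lay far above every wild-type library, and the third was more than 3 times as high as the first. Ccl6 rose by 6.52 ± 0.99 on the log2 scale (edgeR, adjusted p = 3.72e-04), a value that became 5.42 without the third Stra8-deficient library and 7.36 without the second wild-type library. Ccl9, the neighbouring gene and a related Ccr1 ligand, was at 1.91, 2.1 and 7.9 CPM against 0.156, 0.282 and 0 CPM. With 3 wild-type reads in all, its ratio of Stra8-deficient to wild-type was 28.4 (95% counting interval 9.53 to 139), or 12.7 without the third Stra8-deficient library. It was called higher (4.57 ± 0.92; edgeR, adjusted p = 0.00152), at 3.54 without that library and 5.36 without the second wild-type library.

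The promoters of both genes are shown because Ccl6 and Ccl9 lie next to each other and rose most of the tested members, followed by those of Cxcl1 and Cxcl10, textbook targets of inflammatory signalling that also rose. The sequences are RefSeq's on GRCm38.p6, from 250 bases before to 50 after the annotated start, written 5′ to 3′ on the gene's strand. They lie at chr11:83593038-83593337 (minus strand), chr11:83578587-83578886 (minus strand), chr5:90890995-90891294 (plus strand) and chr5:92348840-92349139 (minus strand). Capitals mark matches on either strand to the NF-kB pattern (GGG, 2 bases of any kind, TT, any base, CC), the AP-1 pattern TGANTCA or the interferon-stimulated response element pattern (TTTC, 2 bases of any kind, TTTC).
Ccl6: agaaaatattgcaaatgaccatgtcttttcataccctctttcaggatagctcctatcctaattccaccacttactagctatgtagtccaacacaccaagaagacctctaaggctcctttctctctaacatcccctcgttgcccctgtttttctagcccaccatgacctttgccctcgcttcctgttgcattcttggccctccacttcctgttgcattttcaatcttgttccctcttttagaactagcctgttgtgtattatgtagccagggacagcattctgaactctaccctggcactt
Ccl9: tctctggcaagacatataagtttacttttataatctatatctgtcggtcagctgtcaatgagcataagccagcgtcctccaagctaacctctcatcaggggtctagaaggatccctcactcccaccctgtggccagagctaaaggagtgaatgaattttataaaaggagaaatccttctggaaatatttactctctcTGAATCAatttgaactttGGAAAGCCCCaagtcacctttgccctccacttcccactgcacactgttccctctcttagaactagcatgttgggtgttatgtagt
Cxcl1: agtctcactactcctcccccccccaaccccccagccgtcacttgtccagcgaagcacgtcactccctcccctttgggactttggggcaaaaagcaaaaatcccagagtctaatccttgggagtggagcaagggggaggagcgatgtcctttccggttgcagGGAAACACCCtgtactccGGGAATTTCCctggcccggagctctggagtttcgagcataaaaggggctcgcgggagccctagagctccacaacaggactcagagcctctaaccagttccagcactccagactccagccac
Cxcl10: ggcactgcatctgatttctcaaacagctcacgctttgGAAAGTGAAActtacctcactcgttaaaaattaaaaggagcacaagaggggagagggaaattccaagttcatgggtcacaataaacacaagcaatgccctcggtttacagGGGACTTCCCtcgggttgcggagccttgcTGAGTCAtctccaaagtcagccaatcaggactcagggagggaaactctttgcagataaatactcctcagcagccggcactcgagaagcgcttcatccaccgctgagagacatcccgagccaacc

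In these windows Ccl9 held an AP-1 match, TGAATCA, and an NF-kB match, GGAAAGCCCC, whose first base lies 35 bases before the start. Cxcl1 held 2 NF-kB matches, GGAAACACCC and GGGAATTTCC. Cxcl10 held a match to each of the 3 patterns, GAAAGTGAAA for the interferon element, GGGACTTCCC for NF-kB and TGAGTCA for AP-1, in that order towards the start. The Ccl6 window held none of these letters. A promoter was listed for 7 of the 9 members that rose, and the NF-kB pattern was found in 3 of them, Ccl9, Cxcl1 and Cxcl10. Of the 3 members that fell and had a listed promoter, Ccr6 held the NF-kB pattern and Ccl27a the AP-1 pattern. Of all 32851 promoters of this length, 4.79% held the NF-kB pattern, 7.81% the AP-1 pattern and 3.44% the interferon pattern. Among 43 members with a listed promoter, the numbers were 10, 9 and 3. A match describes letters and not a bound site.

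The remaining ligands of this group were read less. Ccl3, an inflammatory macrophage product, had 9, 11 and 122 reads in Stra8-deficient testes against 1, 0 and 0 in wild-type, and Ccl4, its neighbour and a related macrophage product, had 9, 8 and 47 against 1, 0 and 0. For both, each Stra8-deficient library exceeded each wild-type library, but both lay under the filter. The ratio for Ccl3 was 76 (95% counting interval 13.4 to 3022), or 18.5 without the third Stra8-deficient library, and for Ccl4 it was 34.3 (95% counting interval 5.93 to 1374), or 15.7 without it. In a fit without the filter Ccl3 (edgeR, adjusted p = 0.0053), Ccl4 (edgeR, adjusted p = 0.00305) and the monocyte attractant Ccl7 (edgeR, adjusted p = 0.0158) were called higher. Ccl2, the main ligand of Ccr2, had 8, 3 and 29 reads against 2, 3 and 0 and was not called there (edgeR, adjusted p = 0.0827).

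Levels of Ccl8, Ccl12 and Ccl5 overlapped between the genotypes. Ccl8 was at 1.71, 0.762 and 17.3 CPM against 0.937, 3.53 and 1.47 CPM. Without the third Stra8-deficient library its value turned from 1.73 ± 1.10 (edgeR, adjusted p = 0.185) to -0.71. Ccl12, with 4, 0 and 61 reads against 1, 2 and 1, had a ratio of 8.7 with that library and 0.926 without it. Ccl5, which is typically made by T cells, was at 0.703, 1.43 and 3.62 CPM against 2.03, 1.98 and 0.917 CPM (0.24 ± 0.61; edgeR, adjusted p = 0.734), and its value was -0.64 without the same library. The high levels of Ccl8 and Ccl12 were thus those of 1 library. With scaling to Sertoli cell markers, under which the median of all genes was 1.52, Ccl8 (2.62; edgeR, adjusted p = 1.24e-04) and Ccl5 (1.48; edgeR, adjusted p = 0.0326) were called higher. That scaling used the summed reads of 13 genes and leaned on few of them. Dmrt1, which rose, held 854, 367 and 419 of their 1159, 470 and 1251 CPM in Stra8-deficient libraries. Clu held 121, 31.1 and 586 CPM there, and 1442, 1265 and 1367 of 2295, 2090 and 2109 CPM in wild-type libraries.

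Receptors for these ligands were present at low levels. Ccr1, a receptor of Ccl3, Ccl6 and Ccl9 on myeloid cells, had 19, 6 and 94 reads against 0, 1 and 0, a ratio of 63.7 (95% counting interval 11.2 to 2536) that was 23.1 without the third Stra8-deficient library. It lay under the filter and was called higher without it (edgeR, adjusted p = 0.00291). Ccr2, the receptor of inflammatory monocytes, had 5, 6 and 27 reads against 0, 4 and 3 and was not called in that fit (edgeR, adjusted p = 0.178).

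Macrophage markers moved with these ligands. Of 16 markers 15 were tested, 10 rose, Aif1 fell and 4 were not called, with a median of 2.35 beside 0.11 for all genes tested. Their summed level was 560, 421 and 1774 CPM in the Stra8-deficient and 493, 515 and 460 CPM in the wild-type libraries. Aif1 alone, a calcium-binding protein of macrophages, made up 301 to 368 CPM of the wild-type sums. Without it, a choice made after seeing its value, the sums were 553, 419 and 1751 CPM against 154, 147 and 159 CPM. No macrophage marker was at 0 in all libraries. Among them the largest rises were those of Lyz2, which encodes lysozyme (5.12 ± 0.58; edgeR, adjusted p = 6.44e-05), and of Cd68, a lysosomal protein of phagocytes (4.74 ± 0.53; edgeR, adjusted p = 4.11e-05). Without the third Stra8-deficient library the ratio of Stra8-deficient to wild-type went from 38.8 to 19.4 for Lyz2 and from 30 to 16.2 for Cd68, and for Aif1 from 0.0369 to 0.0131. The part of macrophage number in the chemokine results was not tested.

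**Figure D2:**
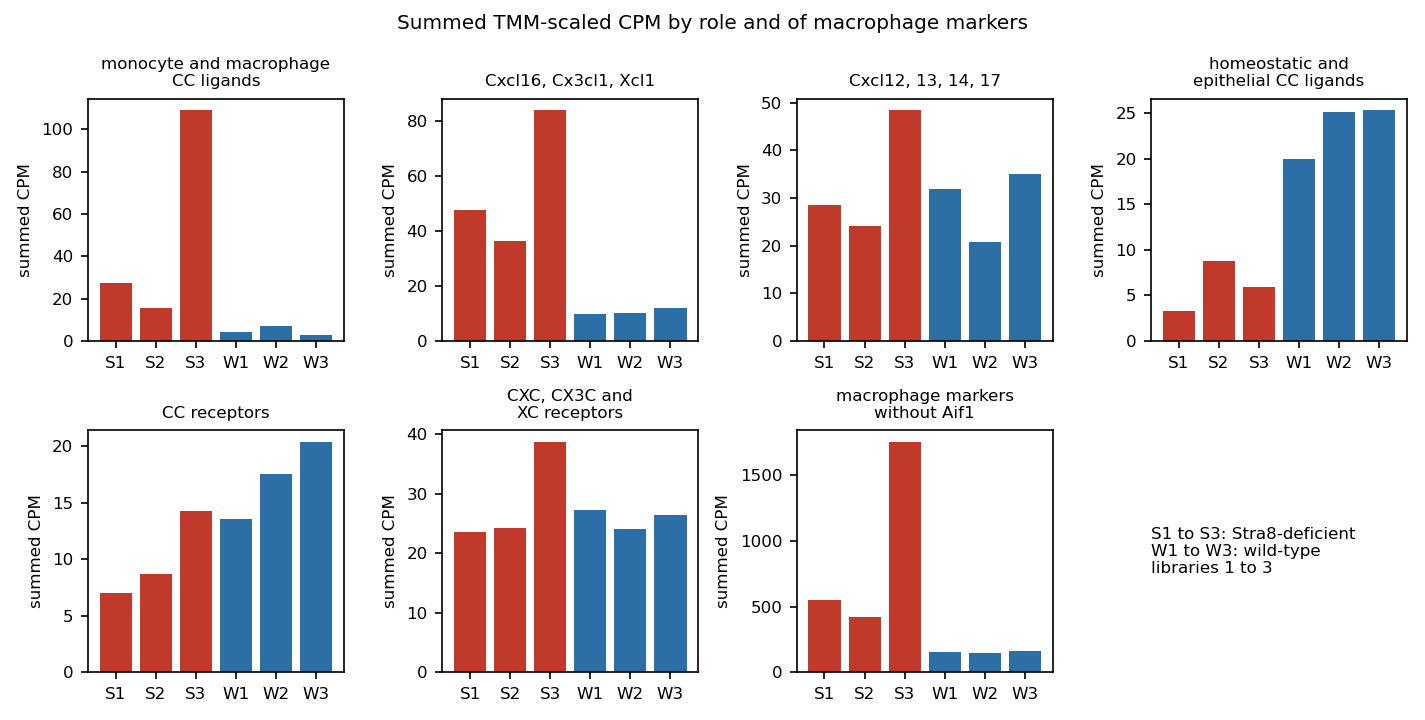
Bars give the summed TMM-scaled CPM of each role in each library (S, Stra8-deficient; W, wild-type), with macrophage markers without Aif1 in the last panel. The monocyte and macrophage ligands reach 27.2, 15.7 and 109 CPM in the Stra8-deficient libraries against 2.57 to 7.06 CPM in wild-type, with the same library on top as for the macrophage markers.

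Ligands of eosinophils and type 2 lymphocytes went the other way or were scarcely read. Ccl22, a dendritic cell and macrophage product that draws Ccr4-bearing T cells, was at 0.602, 0.381 and 0.335 CPM in Stra8-deficient and 8.43, 6.35 and 6.79 CPM in wild-type libraries. All Stra8-deficient libraries lay below all wild-type libraries, and the fall was called (-4.02 ± 0.41; edgeR, adjusted p = 2.13e-05). Ccl17, the other Ccr4 ligand, had 3, 1 and 8 reads against 5, 4 and 8 and was not called without the filter (edgeR, adjusted p = 0.103). Ccr4 was at 2.11, 1.91 and 0.134 CPM against 3.59, 4.38 and 5.14 CPM. Its groups did not overlap, yet the third Stra8-deficient library stood far below the others of its genotype and the difference was not called (-1.70 ± 0.71; edgeR, adjusted p = 0.0544). It was called without that library (-1.12; edgeR, adjusted p = 0.0181), with RLE size factors (-1.80), in DESeq2 (-1.78), in edgeR's exact test (-1.67) and with a replicate block (-1.95). It was not called with library size alone (-1.07; edgeR, adjusted p = 0.193) or with scaling to Sertoli cell markers (-0.15; edgeR, adjusted p = 0.834).

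The eotaxin Ccl11, which draws eosinophils through Ccr3, had 4, 6 and 7 reads and no wild-type read. It was at least 2.21-fold higher by the 95% counting interval. Its receptor Ccr3 had 4, 7 and 12 reads against 0, 1 and 1, a ratio of 6.15 (95% counting interval 1.52 to 53.9). Both lay under the filter and were called higher without it, Ccl11 with edgeR's adjusted p = 0.00961 and Ccr3 with edgeR's adjusted p = 0.0318. Ccl24, another eotaxin, had 4, 1 and 20 reads against 2, 3 and 1 and was not called (edgeR, adjusted p = 0.34). Ccl1, a ligand of Ccr8, had 2 reads in all in Stra8-deficient and 8 in wild-type libraries. It was called lower without the filter (edgeR, adjusted p = 0.0325), with wild-type over Stra8-deficient at 7.47 (95% counting interval 1.49 to 72.3).

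Among homeostatic and epithelial CC ligands, Ccl27a carried the change. Ccl27a, a chemokine best known from keratinocytes and the partner of Ccr10, was at 0.201, 0.476 and 0.469 CPM in Stra8-deficient and 13.4, 17.1 and 15.6 CPM in wild-type libraries. The gap between the genotypes was wide next to the spread within each, at -5.25 ± 0.40 (edgeR, adjusted p = 2.95e-06). Per kilobase of transcript it was the most abundant member in wild-type testis, at 37.9 CPM per kb, followed by Cxcl12 at 8.67 and Ccl25 at 7.66 CPM per kb, and it stood at 0.943 CPM per kb in Stra8-deficient testis. Its exons overlap those of Il11ra1 on the opposite strand in GENCODE M21. The counting did not state strand, so the reads of the pair cannot be told apart, and Il11ra1 itself was at 0.183 to 1.74 CPM. Ccl27a also has near-identical copies, so its count is uncertain. Ccr10 had at most 4 reads in a library.

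Ccl25, the thymic and intestinal ligand of Ccr9, was at 3.11, 8.29 and 5.43 CPM against 6.56, 8.05 and 9.72 CPM. The genotypes overlapped (-0.53 ± 0.40; edgeR, adjusted p = 0.25), and a fall was called only without the second Stra8-deficient library (-0.95; edgeR, adjusted p = 0.0425). The exons of Ccl25 overlap those of Elavl1 on the opposite strand in GENCODE M21, a gene at 104 to 141 CPM against 139 to 158 CPM. The reads of these 2 genes cannot be told apart, so the level of Ccl25, also per kilobase, is uncertain. Ccr9, the receptor of Ccl25, had at most 6 reads in a library. The remaining 7 ligands of the group, Ccl19, Ccl20, Ccl21a, Ccl21b, Ccl21c, Ccl27b and Ccl28, had 0 reads in all 6 libraries. Ccl21 and Ccl27 have near-identical copies, whose reads the counting may have dropped, so these zeros are uncertain. The receptors of these unread ligands were nevertheless read. Ccr6, the receptor of Ccl20 on lymphocytes and dendritic cells, was at 0.1, 0.191 and 0.134 CPM against 4.68, 6.64 and 8.07 CPM and had the lowest fold change of the tested members (-5.38 ± 0.49; edgeR, adjusted p = 9.58e-06). Ccr7, the receptor of Ccl19 and Ccl21, was at 0.301, 3.14 and 1.81 CPM against 4.53, 4.24 and 4.22 CPM. It lay below wild-type in every Stra8-deficient library without being called (-1.29 ± 0.62; edgeR, adjusted p = 0.0856). It was called without the second Stra8-deficient library (edgeR, adjusted p = 0.0221) and with a replicate block (-1.55; edgeR, adjusted p = 0.0316). Scaling to Sertoli cell markers, which moved the median of all genes from 0.11 to 1.52, put Ccr7 at 0.37 (edgeR, adjusted p = 0.604).

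**Figure D3:**
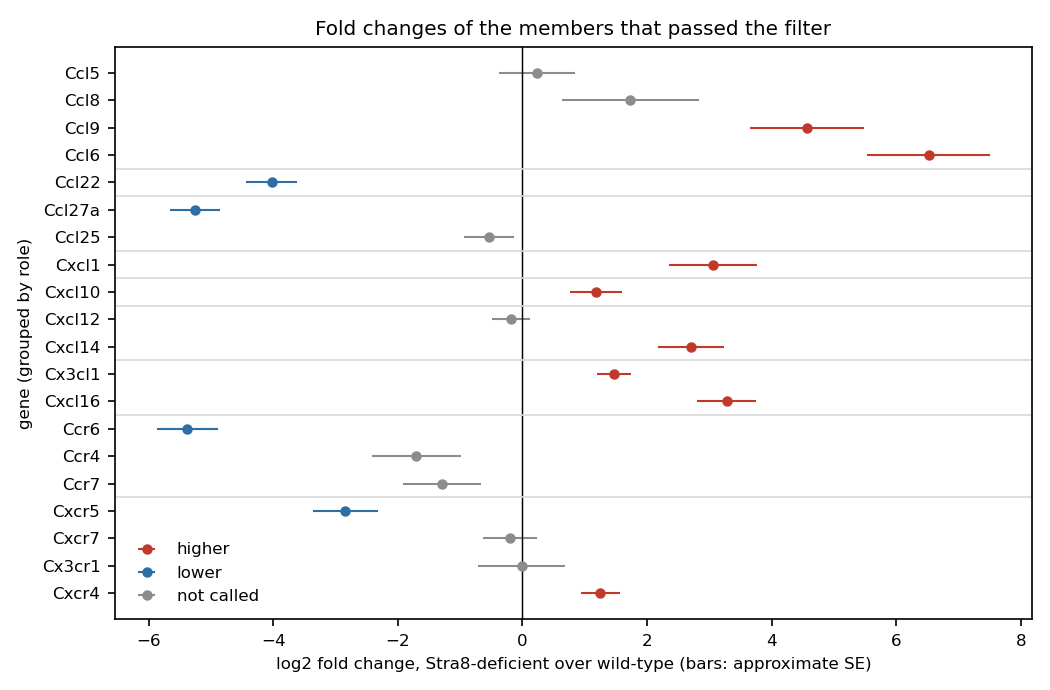
Points give the log2 fold change of 20 tested members, Stra8-deficient over wild-type, and bars the approximate SE, with rows grouped by role and coloured by call. Rises run from 1.18 (Cxcl10) to 6.52 (Ccl6) and falls from -2.84 (Cxcr5) to -5.38 (Ccr6), and ligands and receptors appear on both sides.

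Neutrophil-attracting ligands were near the limit of detection. Cxcl1, which draws neutrophils through Cxcr2, was at 1, 1.81 and 1.47 CPM in Stra8-deficient and 0.312, 0 and 0.183 CPM in wild-type libraries. These are 51 against 3 reads, a ratio of 9.1 (95% counting interval 2.94 to 45.6), and Cxcl1 was called higher (3.06 ± 0.71; edgeR, adjusted p = 0.00349). The value was 3.93 without the first and 2.43 without the second wild-type library. The related ligands Cxcl2 and Cxcl5 had at most 2 reads in a library, Cxcl3 and Cxcl15 had 0, and the receptor Cxcr2 had 1 read in all. Of 10 markers of monocytes and neutrophils 2 were tested, and they moved apart. Mpo, a neutrophil granule enzyme, had 1, 3 and 2 reads against 27, 47 and 33 and fell (-4.94 ± 0.50; edgeR, adjusted p = 1.95e-05), and Plac8, a gene of myeloid cells, was at 7.43, 17 and 12.7 CPM against 5.62, 3.81 and 2.75 CPM and rose (1.60 ± 0.41; edgeR, adjusted p = 0.00566). The summed level of the list was 7.73 to 18.2 CPM against 9.54 to 12 CPM, most of it Plac8 in the Stra8-deficient libraries, and the granule genes Camp and Retnlg had 0 reads in all libraries.

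The ligands induced by interferon did not move together. Cxcl10, which draws activated T cells through Cxcr3, was at 1.91, 2.76 and 3.15 CPM against 1.25, 1.41 and 0.734 CPM and was called higher (1.18 ± 0.42; edgeR, adjusted p = 0.028). The call did not hold in DESeq2 (1.07; DESeq2, adjusted p = 0.128), with a replicate block (1.18; edgeR, adjusted p = 0.0627), or when any 1 library other than the first Stra8-deficient library was left out (0.95 to 1.36; edgeR, adjusted p = 0.0539 to 0.133). Its exons overlap those of Art3 on the opposite strand in GENCODE M21, a gene at 5.02 to 21.4 CPM in Stra8-deficient and 270 to 289 CPM in wild-type libraries. Cxcl11, of the same family, had 0, 0 and 1 reads against 8, 4 and 4. It was called lower without the filter (edgeR, adjusted p = 0.00215), with wild-type over Stra8-deficient at 29.9 (95% counting interval 4.64 to 1254). Cxcl9 had 4, 17 and 16 reads against 4, 4 and 6 and was not called (edgeR, adjusted p = 0.522), and their shared receptor Cxcr3 had 6, 1 and 9 against 0, 0 and 2 (edgeR, adjusted p = 0.177).

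Within the Cxcl12 system the receptor Cxcr4 rose, whereas no change of the ligand was called. Cxcl12, the niche chemokine of stem cells, was at 23.9, 15.5 and 32.4 CPM in Stra8-deficient and 30, 19.1 and 32.5 CPM in wild-type libraries. The ranges overlapped almost wholly (-0.18 ± 0.31; edgeR, adjusted p = 0.622). Cxcr4, its signalling receptor on germ cells and leukocytes, was at 12.6, 11.6 and 20.2 CPM against 7.03, 6.35 and 5.32 CPM, with no overlap, and rose by 1.25 ± 0.31 (edgeR, adjusted p = 0.0049). It stayed called under each of 15 alternative settings, with values of 0.95 to 2.57, and was at 0.95 without the third Stra8-deficient library. At 8.21 CPM per kb it had the highest level per kilobase of the receptors in Stra8-deficient testis, and in wild-type, at 3.45 CPM per kb, it came second to Ccr6 at 3.68, a gap within the spread of Ccr6.  Cxcr7, now named Ackr3, an atypical receptor that takes up Cxcl12, was at 2.81, 9.81 and 7.57 CPM against 6.4, 7.91 and 8.99 CPM (-0.20 ± 0.44; edgeR, adjusted p = 0.693). After scaling to Sertoli cell markers Cxcr7 was called higher (1.41; edgeR, adjusted p = 0.0233) and Cxcl12 stood at 1.08 (edgeR, adjusted p = 0.0639).

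Cxcl14, a chemokine of epithelia and stroma, was at 4.42, 8.57 and 13.3 CPM against 1.72, 0.706 and 1.65 CPM, and rose by 2.70 ± 0.53 (edgeR, adjusted p = 0.00132). Cxcl13, which draws B cells through Cxcr5, had 1, 0 and 40 reads against 0, 1 and 0, so nearly all of its reads came from the third Stra8-deficient library. Cxcr5 went the other way, at 0.803, 0.857 and 0.201 CPM against 5, 4.52 and 3.49 CPM (-2.84 ± 0.52; edgeR, adjusted p = 9.09e-04). The fall of Cxcr5 was not called after scaling to Sertoli cell markers (-1.39; edgeR, adjusted p = 0.0548), and its exons overlap those of Bcl9l on the opposite strand, a gene at 13.5 to 21.7 CPM against 32.9 to 36.3 CPM. Of 10 listed markers of B and plasma cells 4 were tested, with 1 higher, 2 lower and 1 not called, and their summed level was 6.57 to 15.4 CPM against 13.6 to 21.1 CPM. Cxcl17 had 1, 1 and 0 reads against 1, 6 and 5, and was called lower without the filter (edgeR, adjusted p = 0.0191).

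Both ligands that are made as membrane-anchored proteins rose. Cxcl16, which doubles as a scavenger receptor for oxidised lipid on macrophages and draws Cxcr6-bearing T cells, was at 25.1, 21 and 64.3 CPM in Stra8-deficient and 4.22, 3.11 and 4.04 CPM in wild-type libraries. It was far higher in each Stra8-deficient library, most of all in the third, and rose by 3.28 ± 0.47 on the log2 scale (edgeR, adjusted p = 1.69e-04), or 2.60 without that library. The exons of Cxcl16 overlap those of Zmynd15 on the opposite strand in GENCODE M21, a gene at 4.19 to 7.64 CPM in Stra8-deficient and 270 to 342 CPM in wild-type libraries. Reads of this pair cannot be told apart either. Its receptor Cxcr6 had 3, 10 and 11 reads against 10, 8 and 10 and was not called without the filter (edgeR, adjusted p = 0.102).

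Cx3cl1, fractalkine, an adhesive ligand of endothelium and epithelium, was at 22.5, 15.3 and 19.2 CPM against 5.62, 6.92 and 8.07 CPM. The Stra8-deficient libraries were alike and all above wild-type, at 1.47 ± 0.27 (edgeR, adjusted p = 9.02e-04). The third of them was not the highest, and Cx3cl1 stayed called in every one of the 15 alternative settings, at 1.30 to 2.81. Cx3cr1, its receptor on monocytes and macrophages, was at 6.22, 0.667 and 8.51 CPM against 6.4, 3.95 and 5.32 CPM (-0.01 ± 0.70; edgeR, adjusted p = 0.987). The second Stra8-deficient library lay well below the other libraries. Xcl1 had at most 3 reads in a library, and its receptor Xcr1, found on cross-presenting dendritic cells, at most 5.

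Proteases that release or trim chemokines were measured beside their substrates. Of 11 listed, 7 were tested, 5 rose, 1 fell and 1 was not called, beside 75.8% of all genes tested that were called. Adam17, which sheds Cx3cl1 and Cxcl16 from the cell surface, was at 109, 267 and 159 CPM against 47.3, 43.6 and 44.8 CPM and rose by 1.98 ± 0.31 (edgeR, adjusted p = 3.02e-04). Adam10, the constitutive sheddase, was not called (0.34 ± 0.20; edgeR, adjusted p = 0.151). Mmp12, the macrophage elastase, had 248, 261 and 1182 reads against 0. It was at least 245-fold higher by the lower end of its counting interval. Leaving out the third Stra8-deficient library lowers that end to 127. Mmp2, a gelatinase that trims Cxcl12 and Ccl7, rose by 6.14 ± 0.29 (edgeR, adjusted p = 1.62e-07), and Mmp14, its activator, fell by 1.89 ± 0.46 (edgeR, adjusted p = 0.00458).

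Many members lie side by side in the genome. In RefSeq's GRCm38.p6 order, 24 pairs of members had no other protein-coding gene between them, with 14 members on chromosome 11, 12 on chromosome 9 and 11 on chromosome 5. The fit without a low-count filter called 15 members higher and 7 lower of 50 with a read. Over all 18938 genes in that fit 65.0% were called, 33.1% higher and 31.9% lower, so the members' share lay below the background. The longest run of rises was Ccl9, Ccl6, Ccl3 and Ccl4 on chromosome 11, next to Ccl5, which was not called. On chromosome 8, the neighbours Ccl22 and Cx3cl1 differed in direction, with Ccl22 lower and Cx3cl1 higher.

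**Figure D4:**
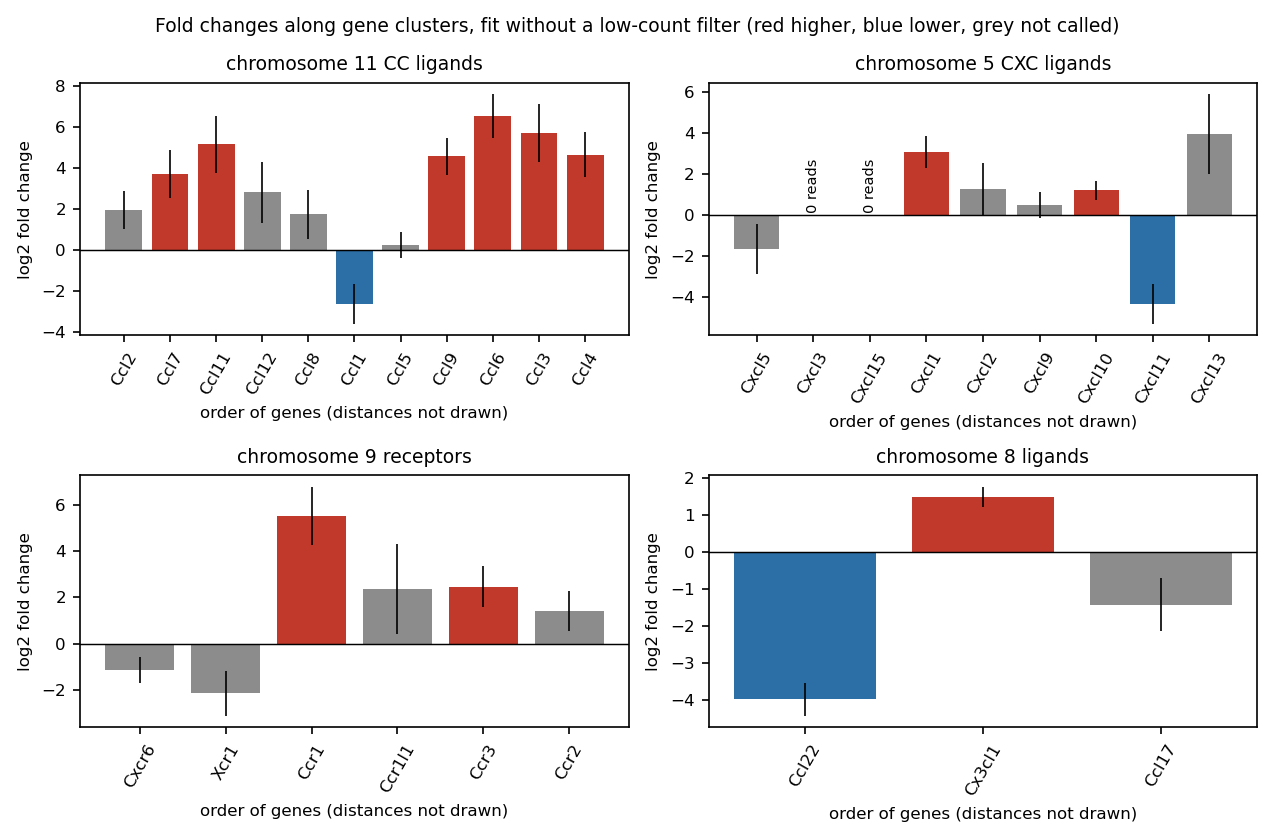
Bars give log2 fold changes from the fit without a low-count filter along 4 groups of members in chromosome order (distances not drawn), with the approximate SE, red for higher, blue for lower and grey for not called. Ccl9, Ccl6, Ccl3 and Ccl4 rise together, whereas Ccl22 and Cx3cl1 differ in direction. The bar of Ccl11 is set by the fit, since wild-type had 0 reads.

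The Stra8-deficient libraries differed from each other in these genes. Over the 21 tested members the median range of log2 CPM among the 3 Stra8-deficient libraries was 1.35, beside 0.88 for the 6850 genes in the same range of mean level and 0.55 for the members among wild-type libraries. The third library was the highest of the 3 for 11 of the 21 members, the second for 7 and the first for 3. That is 52.4% for the third library, beside 37.3% of the genes in the same range of mean level and 32.8% of all genes tested. All 15 tested macrophage markers were highest in the third library, which was also the one counted on a longer gene list. Relative to the mean of the first and second libraries, the third stood at 14 times for Ccl8, 4.35 times for Ccl6, 3.95 times for Ccl9 and 2.79 times for Cxcl16, but at 1.02 times for Cx3cl1, 0.242 times for Cxcr5 and 0.0668 times for Ccr4. Leydig cell markers, summed over 8 genes, were at 340, 18.4 and 2799 CPM in the Stra8-deficient libraries against 800 to 1302 CPM in wild-type. The part of cell makeup in these differences was not tested.

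Genes of T and natural killer cells, which carry many of the receptors, were at low levels. Of 19 markers 7 were tested, 4 rose, 1 fell and 2 were not called, beside 75.8% of all genes tested that were called. Cd4, Cd8a, Cd2 and Lck rose, by 3.05, 4.31, 3.58 and 1.59 on the log2 scale. Cd8a had 14, 15 and 17 reads against 0, 0 and 1, a ratio of 24.6 (counting interval 4.2 to 993). The listed marker Cd8b1, which was not tested, went the other way without overlap. It had 1, 5 and 2 reads against 16, 16 and 7, a ratio of 0.11. The ratio of Stra8-deficient to wild-type for Cd4 was 9.46 with all libraries and 3.65 without the third Stra8-deficient library. Among the chains of the T cell receptor complex, Cd3d fell (-3.60 ± 0.84; edgeR, adjusted p = 0.00349), with a ratio of 0.0883 that was 0.00899 without that library. Cd3e was at 0.191 to 0.536 CPM against 0.565 to 0.937 CPM, and Cd3g had 2, 2 and 16 reads against 0, 1 and 0. The summed level of the list was 58.8 to 69.5 CPM against 38.1 to 41.1 CPM, much of it from Cd247, another chain, at 28.1, 42.2 and 0.335 CPM against 19.7, 23.2 and 23.8 CPM. No marker was at 0 in every library. Dendritic cell markers rose for 6 of 8 tested and 2 were not called, beside 75.8% of all genes tested called and 39.0% higher. Their sums were 153 to 249 CPM against 54.8 to 64.8 CPM. Among the dendritic cell markers Batf3, a transcription factor of cross-presenting cells, rose by 5.30 ± 0.46 (edgeR, adjusted p = 7.12e-06). Its levels were 20.9, 16.4 and 14.6 CPM in Stra8-deficient libraries, lowest in the third. The listed marker Clec9a had 0, 1 and 4 reads against 0, 0 and 0. Xcr1, also found on these cells, had 0, 1 and 3 reads against 5, 1 and 4. A change in the number of these cells was not tested.

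Beyond the named families, other genes of the pathway were followed in fixed lists. Among 30 genes that carry the signal of chemokine receptors 28 were tested, 14 rose, 6 fell and 8 were not called. Their median was 0.73 beside 0.11 for all genes tested. The share called was no larger than the 75.8% called over all genes tested. The arrestin Arrb2, which ends signalling and internalises receptors, was at 197, 104 and 153 CPM against 8.43, 7.91 and 9.91 CPM (4.12 ± 0.28; edgeR, adjusted p = 1.43e-06), while its relative Arrb1 fell by 1.54 ± 0.21 (edgeR, adjusted p = 1.51e-04). Rgs1, which damps chemokine receptor signals in leukocytes, had 17, 18 and 59 reads against 0. It was at least 13.4-fold higher by the lower end of its counting interval. Leaving out the third Stra8-deficient library lowers that end to 8.33. Plcb2, a phospholipase of leukocytes, fell by 4.64 ± 0.37 (edgeR, adjusted p = 4.38e-06).

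Of 28 cytokines and factors that induce chemokines 18 were tested, with 5 higher, 3 lower and 10 not called and a median of 0.27. Over all genes tested, 75.8% were called and the median was 0.11, so this share lay below the background. Irf1, a transcription factor induced by interferon, was at 201, 227 and 245 CPM against 3.12, 4.09 and 3.67 CPM and rose by 5.94 ± 0.22 (edgeR, adjusted p = 4.2e-08). The toll-like receptor gene Tlr2 rose by 3.54 ± 0.62 (edgeR, adjusted p = 6.39e-04), with a ratio of 13 that was 7.3 without the third Stra8-deficient library. Il1b, which encodes an inflammatory cytokine, was at 0.1, 0.191 and 0.402 CPM against 2.03, 2.68 and 2.2 CPM and fell (-3.16 ± 0.51; edgeR, adjusted p = 4.05e-04), with a ratio of 0.109 that was 0.0631 without the same library. Tnf was at 0.201, 0.572 and 0.871 CPM against 0.312, 0 and 0 CPM, and Ifng had 1 read in all.

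Of 10 relatives outside the name rule 7 were tested, with 3 higher, 2 lower and 2 not called, beside 75.8% of all genes tested called. Cklf, a chemokine-like factor, fell by 3.47 ± 0.41 (edgeR, adjusted p = 5.58e-05), and its ratio went from 0.0953 to 0.0564 without the third Stra8-deficient library. Mif, a cytokine that can signal through Cxcr4, was at 8.13, 1.33 and 15.1 CPM against 0.937, 0.282 and 0.367 CPM and was called higher (3.93 ± 0.91; edgeR, adjusted p = 0.00344). Mif has processed copies elsewhere in the genome, so its count is uncertain, and its ratio went from 17.2 to 8.79 without the third Stra8-deficient library. Pf4, the platelet chemokine also known as Cxcl4, was at 3.31, 2.29 and 13.9 CPM against 3.12, 1.55 and 2.57 CPM and was not called (1.45 ± 0.69; edgeR, adjusted p = 0.0833).

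In the authors' deposited table of their own comparison, 50 of the members appeared, and 33 had a corrected p under 0.05, 20 higher and 13 lower. The share under that threshold over all genes of their table was not taken, so these counts have no background beside them. They also include members with too few reads to be tested here, and cannot be set against the calls made here. That table compares the same libraries, so its signs are not independent of those here. All 21 tested here had the same sign in the authors' deposited table, and its corrected p was under 0.05 for the 13 called here and for 3 more of the 21.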

How the data were processed

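Poly(A) RNA of whole testis was sequenced in 6 libraries after TRIzol extraction and an Illumina mRNA kit, per the labels' protocols. The submitters' processing notes name TopHat, HTSeq and edgeR and the mm9 build, with no version, and the gene annotation and the strand setting are not stated there. The authors deposited counts, whole reads per gene symbol with no normalisation. The deposited comparison table holds log2 ratios and log2 abundances, and its deposited p-value columns nominal and corrected p. HTSeq's counters of reads outside genes (20.9% to 34.5% of a library) were left out. Unmatched sample columns numbered 0. The third Stra8-deficient file lists 23285 symbols and the others 22055; the 21786 in common hold 99.31% to 99.68% of gene reads.

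Genes were filtered with filterByExpr, scaled by TMM and compared with edgeR 4.0.16's quasi-likelihood test (robust, R 4.3.3), with genotype as the one term, adjusted over 15018 genes. SEs were obtained as the absolute log2 fold change over the root of the F statistic. DESeq2 1.42.0 was an alternative. Ratios with 1 to 3 reads in a genotype carry exact 95% counting intervals. Those with 0 wild-type reads are given as the lower end of such an interval. These, like the limit of 3 counts, cover counting error only, because PCR copies were not told apart by molecular identifiers. The labels give each library as that of a male but do not say that replicates are different males, so p-values measure only the spread between these libraries, which may be technical. Levels per kilobase use GENCODE M21's longest principal transcript. GENCODE and RefSeq are on GRCm38, another build than mm9, and gave lengths, overlaps, gene order and promoters; 58 of 59 members matched. Any member could be named, with up to 2 genes of each other list that changed most in its main direction and 1 in the other, at a mean log2 CPM of at least 0. Mpo, Plac8, Cd4, Cd8a, Cd2, Lck, Cd3g, Cd247, Mmp14, Adam10, Adam17, Cd3e, Cd3d, Tnf, Ifng, Pf4, Arrb1, Rgs1, Il1b, Aif1, Camp, Retnlg, Zmynd15, Art3, Il11ra1 and Bcl9l were among those named for their role, overlap or value after values were seen where that rule does not reach them. Cd8b1, Clec9a, Elavl1, Dmrt1 and Clu were also named after values were seen. Members and lists were chosen with earlier results of these data known. The fit was tested on simulated counts. Results for 1 member and 1 marker gene, counted in the totals, are not reported here.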

Additional observations from a re-analysis of the deposited data

How the results depend on the processing

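Of the 13 called members 10 kept their call under all 15 alternatives (3 other scalings, scaling to Sertoli cell markers, 2 other filters, DESeq2, edgeR's exact test, a replicate block and leaving out each library); Cxcl10 and Cxcr5 were among the exceptions. Of the 8 not called, Cxcl12 and Cx3cr1 stayed so throughout. Without a low-count filter 22 members were called, 15 higher and 7 lower, 16 of them ligands; 50 members entered that fit, and 65.0% of all its genes were called. Leaving out 1 library gave 13 to 16 called members, 8 to 10 higher and 4 to 7 lower, with 8 to 10 ligands and 4 to 7 receptors. Without the second Stra8-deficient library 7 members were lower. The median of the tested members was 0.84 with library size alone, 1.48 after scaling to Sertoli cell markers and -0.00 with a replicate block, and ran from -0.47 to 0.58 over the fits without 1 library, below 0 without the third Stra8-deficient (-0.47) or the third wild-type library (-0.02). The median of all genes was 0.73 with library size alone and 1.52 with Sertoli scaling, so all changes are relative. Higher genes made up 51.5% of all calls with TMM, 63.6% with library size alone and 75.4% with Sertoli scaling. Cxcr7 turned to 1.41 with Sertoli scaling. Fewer than 10 reads in all limit 8 of the members that were read.

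Same-numbered libraries of the genotypes did not deviate together (correlations 0.06, 0.08 and -0.04), so the numbers were not taken as pairs. With the replicate block 8 members were higher and 6 lower. The third Stra8-deficient library did not correlate best with its own number.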
